A study of Drosophila melanogaster with 9 samples.

Results

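The genes described here are 7 core components of bone morphogenetic protein (BMP) signalling in Drosophila melanogaster: the ligand genes dpp (decapentaplegic) and gbb (glass bottom boat), the type I receptor genes tkv (thickveins) and sax (saxophone), the type II receptor gene put (punt), and the Smad genes Mad (Mothers against dpp) and Dad (Daughters against dpp). They were found by their FlyBase symbols, all 7 of them among the 15682 gene identifiers of the count tables. All 7 passed the filter on low counts, so the 10088 genes tested include every one of them.

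Midguts were dissected from adult virgin females of 3 groups with 3 sequencing libraries each, every library made from a pool of 30 midguts. Control females were wild type for transformer (tra), which encodes a splicing regulator of female somatic differentiation. The mutant females carried tra mutations whose alleles the labels do not name. The rescue females were tra mutants in which the female form of tra (traF) was driven by esg, a driver of intestinal stem cells and their immediate progeny, so that cells outside that driver stayed mutant. All groups shared the w1118 background, an age given as 15 days, and 3 days at 18 °C followed by 10 days at 29 °C, which switches the transgene on. The control and mutant females therefore went through the same temperature shift as the rescue.

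BMP ligands are secreted dimers that bring type I and type II receptor kinases together. The type II receptor activates the type I receptor, which phosphorylates Mad. Phosphorylated Mad enters the nucleus with its partner Medea and regulates target genes, among them Dad, an inhibitory Smad that dampens the pathway and is widely used as its reporter. In the adult fly midgut the pathway is known for maintaining the acid-secreting copper cells and for acting on intestinal stem cells, and dpp has been reported in visceral muscle, trachea, enterocytes and haemocytes.

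The libraries held 84839470 to 108455374 gene counts. Control libraries held 821, 650 and 742 counts of tra, mutant libraries 1, 2 and 1, and rescue libraries 756, 472 and 294, which matched the labelled genotypes. On the first principal component, with 38.6% of the variance, the control libraries lay at -34.6, -34.5 and -64.2 and the other 6 between 18.8 and 27. Control replicate 3 thus stood apart from the other control libraries, and results that rest on it are given with and without it. Copper cell markers, including the homeobox gene lab, were detected in every library (summed level 419 to 577 CPM, counts per 1000000 gene counts after TMM scaling of the library), as were enterocyte and enteroendocrine markers. The 4 ovary markers matched to an identifier summed to at most 0.168 CPM, and the chorion gene Cp38 was at 0 throughout.

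All 7 genes were detected in every midgut library. Levels are compared between genes as CPM per kilobase of exon sequence. In control, tkv was the highest at 34.7 ± 1.49 CPM per kb (SD, n = 3), followed by Mad at 19.3 ± 1.37. Next came put at 14.2 ± 1.18, sax at 13.6 ± 0.644 and Dad at 13.5 ± 0.467 CPM per kb, whose ranges over libraries overlapped from each gene to the next. The ligand genes were lowest, gbb at 10.5 ± 1.85 and dpp at 4.12 ± 0.14 CPM per kb. Among the 9682 tested genes with a length, 81.9% lay below tkv in control and 40.1% below dpp.

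The same order of means, from tkv through Mad, put, sax, Dad and gbb to dpp, was found in the mutant and in the rescue. The libraries of tkv and Mad did not overlap in any group (lowest tkv 33.4 and highest Mad 20.2 CPM per kb in control), nor did those of Mad and put or of gbb and dpp. Dad and gbb overlapped in the mutant, where Dad was 11 ± 1.15 and gbb 9.84 ± 1.37 CPM per kb, and were apart in control and rescue. With the longest transcript in place of all exons, the control level of dpp was 5.07 CPM per kb and that of tkv 42.6 CPM per kb. By that length sax (14.3 CPM per kb) and put (14.2) changed places in control, so their order depends on the length used. tkv shares exon sequence with TpnC25D and CR14033 on the other strand, and no source used here states the strand setting of the counting, which leaves its counts uncertain where the genes overlap. TpnC25D had 1496 to 2604 counts per library and CR14033 786 to 2938, against 12625 to 23379 for tkv. The other members share exon sequence with no annotated gene.

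**Figure D1:**
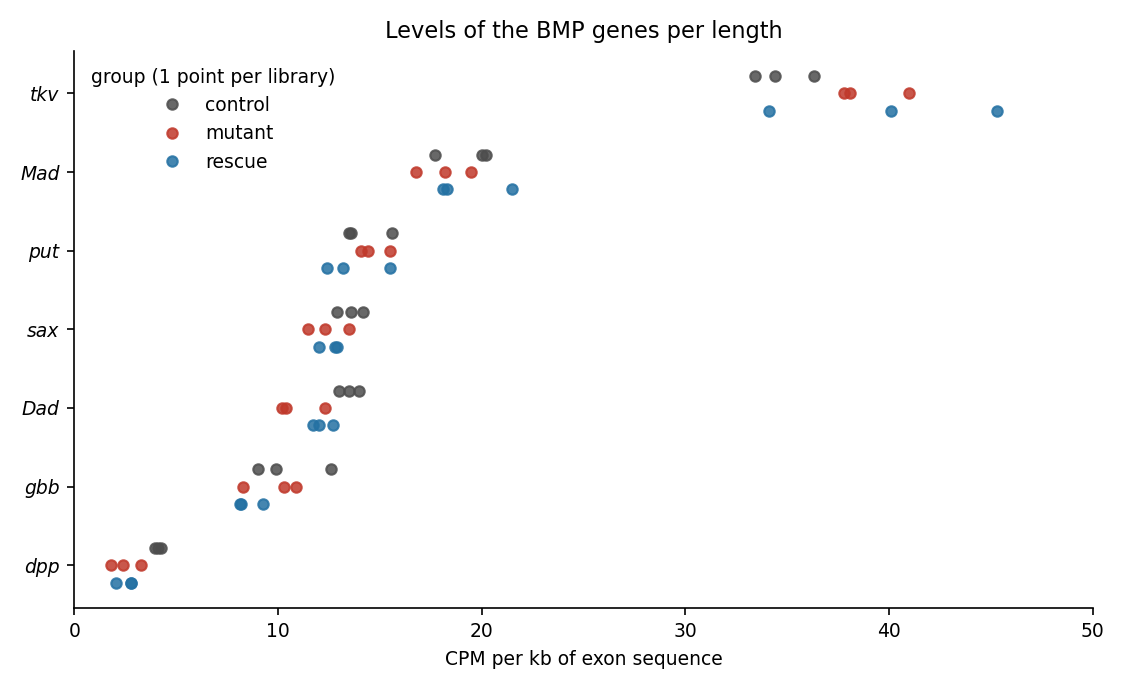
Level of each BMP gene in CPM per kilobase of exon sequence (horizontal axis), with 1 point per library and groups in separate rows and colours. tkv lies at 33.4 CPM per kb or above in every library, and dpp at 4.27 CPM per kb or below.

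dpp encodes the principal BMP ligand of the fly. It measured 21.3, 22.3 and 20.8 CPM in the control libraries, 12.4, 9.47 and 17.0 CPM in the mutant, and 14.6, 14.6 and 10.6 CPM in the rescue. Every mutant and rescue library lay below every control library, and the mutant and rescue libraries overlapped each other. The control values were close together, with a standard deviation of 3.39% of the mean, against 29.2% in the mutant and 17.3% in the rescue. The counting error of dpp was at most 3.33% per library (902 counts at the lowest).

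Relative to control, dpp was 0.604-fold in the mutant, a log2 fold change of -0.73 ± 0.20 (SE; 95% interval -1.18 to -0.27), which missed the threshold of 0.05 (edgeR adjusted p = 0.0623). In the rescue it was 0.620-fold of control (-0.69 ± 0.20, interval -1.14 to -0.24, edgeR adjusted p = 0.0619). These comparisons share the control libraries. From mutant to rescue the log2 difference was 0.04 (interval -0.41 to 0.49, edgeR adjusted p = 0.999). DESeq2 called dpp lower in both groups, with adjusted p = 0.0140 in the mutant and 0.0191 in the rescue, both against control. Over all genes, DESeq2 called more than edgeR in both of these comparisons (numbers below). Without mutant replicate 3, which held the highest mutant level, dpp passed with edgeR against control (-0.96, adjusted p = 0.0264). In the rescue it passed with edgeR on the 6 libraries compared (adjusted p = 0.0411, and 0.0447 with the replicate block) and in the fits without mutant replicate 2 (0.0379) or 3 (0.0417). Over the 18 alternative settings the difference from control was -0.96 to -0.54 in the mutant (adjusted p 0.0140 to 0.173) and -0.74 to -0.55 in the rescue (0.0191 to 0.188). Without control replicate 3 the values were -0.74 (edgeR adjusted p = 0.0964) and -0.69 (0.103).

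Marker levels of tissues in which dpp has been reported are given beside it. In bulk midguts, fewer cells of a type and less RNA per cell cannot be told apart. The 13 visceral muscle markers, such as the myosin heavy chain gene Mhc, summed to 2360 to 2860 CPM in control, 1550 to 1990 CPM in the mutant and 1630 to 2360 CPM in the rescue. The mutant sums were thus below control, while the rescue sums reached the lowest control sum and overlapped the mutant. None of the 13 passed with edgeR in the mutant (7 were lower and 0 higher when p under 0.05 was taken without adjustment, and 4, all lower, passed with DESeq2; median log2 fold change -0.36). For this and the next lists, edgeR called 6.67% of all tested genes in mutant against control. Without adjustment 24.0% of them passed there (1131 higher and 1292 lower). DESeq2 called 701 genes higher and 656 lower of 10316, and in rescue against control 836 higher and 906 lower of 10571. Mhc, which DESeq2 called lower in both groups, gave a log2 difference from control of -0.69 in the mutant (edgeR adjusted p = 0.0831) and -0.59 in the rescue (0.107). The 3 tracheal markers summed to 13.9 to 19.1 CPM in control, 12.5 to 15.3 in the mutant and 11.4 to 12.6 in the rescue. Of these, trh, a transcription factor of tracheal fate, fell in the mutant (-0.83, edgeR adjusted p = 0.0307). In the rescue verm, a tracheal chitin deacetylase gene, fell (-0.73, edgeR adjusted p = 0.0354), where edgeR called 4.65% of all tested genes lower. DESeq2 called trh lower in the mutant, and trh and verm lower in the rescue. The remaining marker, serp, did not pass against control in the mutant (-0.08, edgeR adjusted p = 0.827) or in the rescue (-0.36, edgeR adjusted p = 0.259). The 6 haemocyte markers summed to 22.0 to 53.0 CPM in control, 13.7 to 19.9 in the mutant and 15.1 to 34.5 in the rescue, and none of the 5 tested passed with edgeR in the mutant (3 were lower and 0 higher without adjustment, and 2, both lower, passed with DESeq2). The sums of the 6 enterocyte markers overlapped between all groups, at 36400 to 57400 CPM in control, 41100 to 47100 in the mutant and 37200 to 48600 in the rescue. In the mutant their median log2 fold change was -0.02, with 3 higher and 3 lower and none past the threshold with edgeR (1 without adjustment and 1 with DESeq2, both higher). No marker of these lists was at 0 in all libraries. The part of these tissues in the dpp difference was not tested.

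gbb encodes another BMP ligand, which can pair with Dpp. Its levels were 15.2, 16.8 and 21.2 CPM in the control libraries, 18.4, 14.0 and 17.3 CPM in those of the mutant, and 15.7, 13.7 and 13.8 CPM in those of the rescue. All groups overlapped, with control replicate 3 the highest of the 9 libraries. The log2 differences were -0.09 (interval -0.43 to 0.24) for mutant against control and -0.30 (interval -0.64 to 0.04, edgeR adjusted p = 0.236) for rescue against control. Without control replicate 3 the mutant difference was 0.07 and so turned in sign.

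The counts of dpp relative to gbb within a library do not depend on how libraries are scaled. The ratio was 1.4, 1.33 and 0.982 in the control libraries, 0.674, 0.677 and 0.980 in those of the mutant, and 0.935, 1.07 and 0.769 in those of the rescue. Mutant ratios were lower than all control ratios, but mutant replicate 3 and control replicate 3 were nearly equal. The difference of mutant from control was -0.68 on the log2 scale, with a two-sided exact permutation p = 0.1, the smallest that 3 against 3 libraries can give (0.4 after Benjamini-Hochberg adjustment over 12 ratio tests). Between same-numbered libraries the mutant was lower in 3 of 3 pairs, of which the third differed by 0.00 after rounding (exact paired permutation p = 0.25). Rescue against control gave -0.42 (exact permutation p = 0.2).

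**Figure D2:**
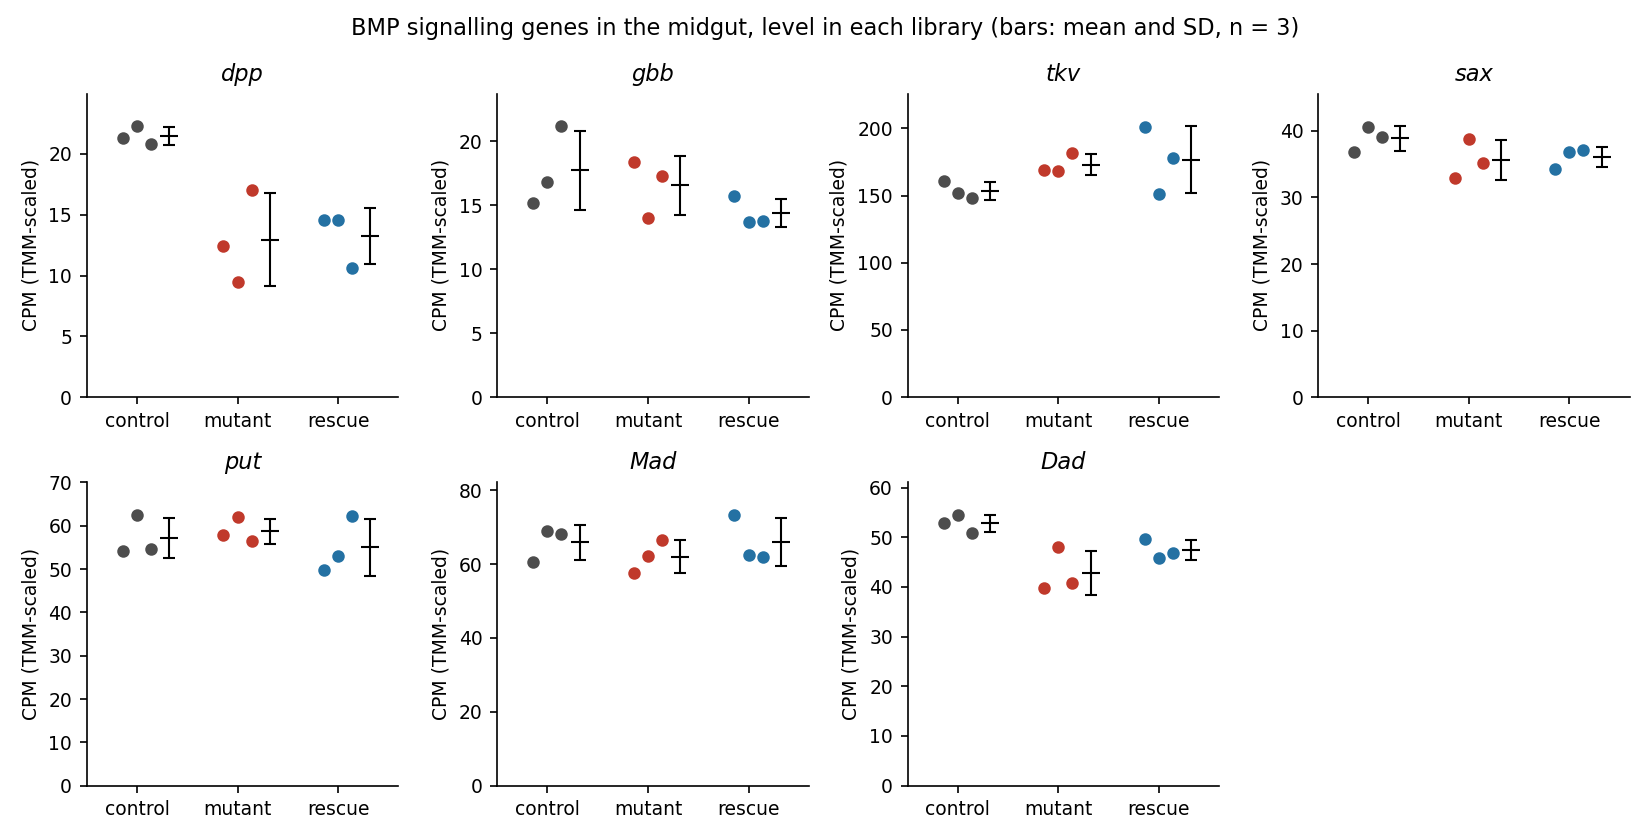
Level in CPM (vertical axes, from 0) of each of the 7 genes in the 9 libraries, 1 point per library, with mean and SD per group (n = 3). The control points of dpp lie at 20.8 to 22.3 CPM, above the 9.47 to 17.0 CPM of the mutant and rescue libraries, while the groups of gbb, sax, put and Mad overlap.

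tkv and sax encode the type I receptors, which phosphorylate Mad. tkv measured 161, 152 and 148 CPM in the control libraries, 169, 168 and 182 CPM in those of the mutant, and 201, 151 and 178 CPM in those of the rescue. The mutant libraries lay above the control libraries by a small margin and the rescue overlapped both. The log2 difference of mutant from control was 0.17 ± 0.13 (interval -0.12 to 0.45, edgeR adjusted p = 0.455). sax measured 36.9, 40.6 and 39.1 CPM in the control libraries, 32.9, 38.8 and 35.2 in those of the mutant, and 34.3, 36.8 and 37.1 in those of the rescue. Its groups overlapped, with a mutant difference of -0.13 (interval -0.35 to 0.09, edgeR adjusted p = 0.468). The count ratio of tkv to sax was 3.76 to 4.36 in control, 4.32 to 5.17 in the mutant and 4.12 to 5.84 in the rescue, overlapping between groups (exact permutation p = 0.2 for each group against control). Between same-numbered libraries it was higher in the mutant in 3 of 3 pairs, by 0.23, 0.20 and 0.45 on the log2 scale (exact paired permutation p = 0.25, the smallest that 3 pairs can give).

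put encodes the type II receptor shared by the BMP and Activin branches. It measured 54.2, 62.6 and 54.7 CPM in the control libraries, 57.8, 62.0 and 56.5 in those of the mutant, and 49.7, 53.1 and 62.3 in those of the rescue, with all groups overlapping. The log2 differences were 0.04 (interval -0.22 to 0.30) for mutant against control, -0.09 (interval -0.35 to 0.16) for rescue against mutant and -0.05 (interval -0.31 to 0.20) for rescue against control. The count ratio of tkv to put was 2.44 to 2.97 in control, 2.70 to 3.22 in the mutant and 2.85 to 4.04 in the rescue, and no comparison of it reached an exact permutation p below 0.3.

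Mad encodes the receptor-activated Smad. It measured 60.5, 68.9 and 68.2 CPM in the control libraries, 57.5, 62.2 and 66.4 in those of the mutant, and 73.4, 62.5 and 61.9 in those of the rescue. The groups overlapped in every comparison, and the log2 differences were -0.09 (interval -0.34 to 0.17) for mutant against control and 0.00 (interval -0.25 to 0.25) for rescue against control. These intervals concern the transcript, since the counts carry no information on phosphorylated Mad.

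Dad, the inhibitory Smad and target of the pathway, measured 52.9, 54.5 and 50.9 CPM in the control libraries, 39.8, 48.0 and 40.7 CPM in those of the mutant, and 49.6, 45.8 and 46.8 CPM in those of the rescue. Both other groups lay below control in every library, and the rescue overlapped the mutant. The mutant was 0.812-fold of control (-0.30 ± 0.10, interval -0.53 to -0.07), which did not pass with edgeR (adjusted p = 0.113) or with DESeq2 (adjusted p = 0.113). Rescue against control gave -0.15 (interval -0.38 to 0.08, edgeR adjusted p = 0.372), and rescue against mutant 0.15 (interval -0.08 to 0.38, adjusted p = 0.999). Over the 18 alternatives the mutant difference was -0.39 to -0.25 (adjusted p 0.0819 to 0.323). The count ratio of Dad to Mad overlapped between all groups, at 0.746 to 0.874 in control, 0.612 to 0.772 in the mutant and 0.676 to 0.756 in the rescue (exact permutation p = 0.2 against control for mutant and rescue). The mutant ratio was below that of the same-numbered control in 3 of 3 pairs, with log2 differences of -0.34, -0.04 and -0.29 (exact paired permutation p = 0.25).

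**Figure D3:**
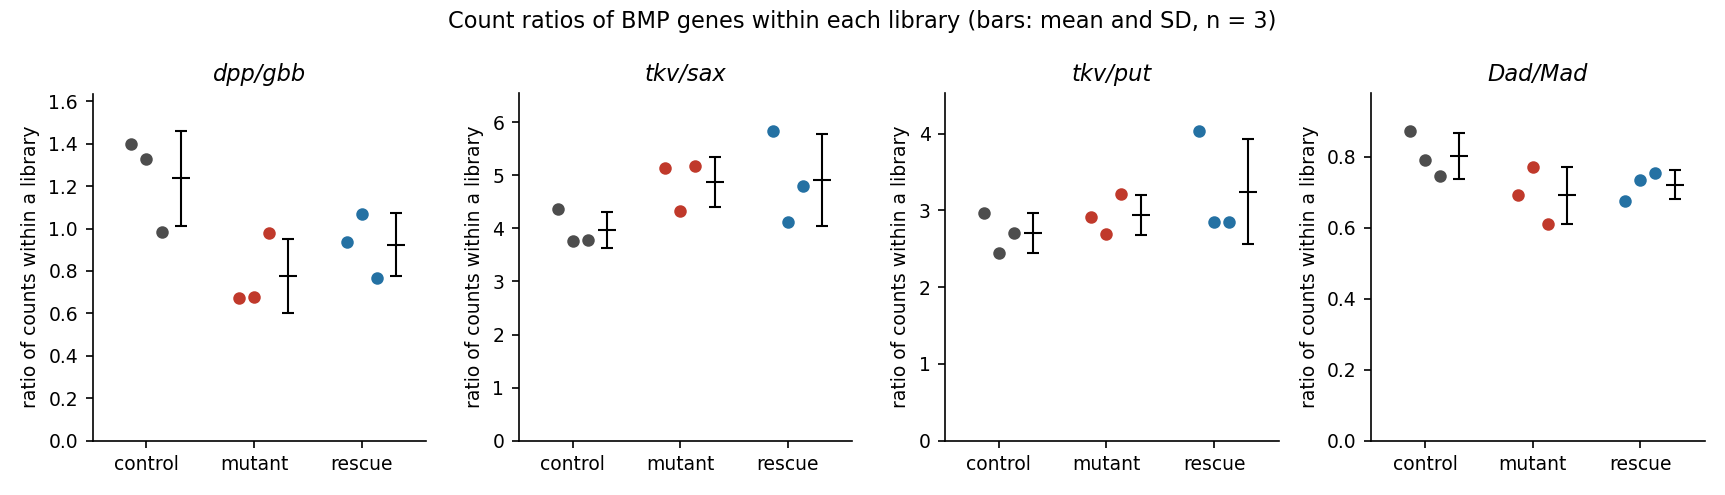
Ratio of the counts of 2 BMP genes within each library (vertical axes, from 0, not corrected for length), 1 point per library with mean and SD per group (n = 3). The dpp/gbb ratio is 0.674 to 0.980 in the mutant and 0.982 to 1.4 in control, and the other ratios overlap between groups.

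Counted over the 7 genes, none passed with edgeR in mutant against control, where 6.67% of all tested genes did (3.66% rose and 3.01% fell). At an unadjusted p under 0.05, 2 members (dpp and Dad, both lower) passed, against 24.0% of all tested genes. With DESeq2 1 member (dpp) passed, where 701 genes rose and 656 fell of the 10316 with an adjusted p. The libraries of the groups did not overlap for 3 of the 7 (dpp and Dad lower, tkv higher), against 25.6% of all tested genes (12.7% higher and 12.9% lower). The median log2 fold change of the members was -0.09, and that of all tested genes -0.03. In rescue against control none passed with edgeR (background 9.44%, of which 4.79% rose and 4.65% fell). There 1 did at an unadjusted p under 0.05 (background 27.3%) and 1 with DESeq2 (background 836 rising and 906 falling of 10571), both times dpp. Groups did not overlap for 2 of the 7 (dpp and Dad lower), against 31.4% of all tested genes (15.6% higher and 15.8% lower). In rescue against mutant none passed with edgeR (background 0.466%, with 0.188% rising and 0.278% falling). None passed there without adjustment (0, background 5.07%) or by DESeq2 (0, background 64 rising and 63 falling of 11082). All 7 overlapped, where 12.2% of all tested genes did not (5.32% higher and 6.84% lower). For the 6 genes other than dpp, the 95% intervals of the log2 difference lay between -0.64 and 0.48 in the 3 comparisons.

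**Figure D4:**
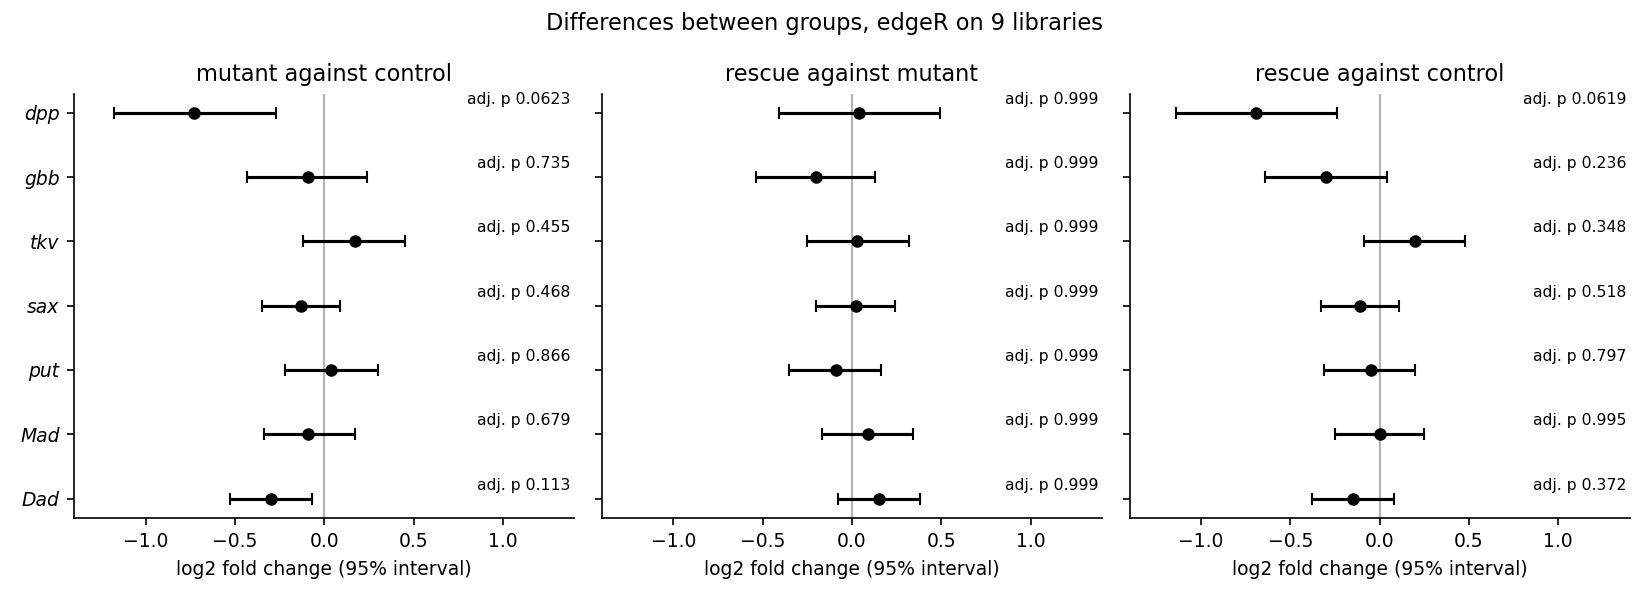
Log2 fold change (horizontal axes) with its 95% interval for each of the 7 genes in the 3 comparisons, with edgeR adjusted p at the right. The dpp interval lies below 0 against control, at -1.18 to -0.27 in the mutant and -1.14 to -0.24 in the rescue, with adjusted p of 0.0623 and 0.0619.

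The members varied little between control libraries. Their median coefficient of variation there was 4.75%, with gbb the most variable at 17.6%, while the median over the 3653 tested genes in the same range of CPM was 12.7%. In the mutant the median of the members was 8.33% (9.68% over the genes in range), and in the rescue 9.81% (7.55%), so the members exceeded the genes in range there. The control figures include control replicate 3, and the spread without it was not tested. Over all tested genes the median was 18.5% in control, 13.4% in the mutant and 11.3% in the rescue.

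The genes whose log2 CPM followed each member most closely over the 9 libraries, among tested genes with a symbol, are given as a description. These are the highest of all such genes, and the libraries share the difference between groups. For dpp they were CG4829 (Pearson r = 0.965), Mlp84B (0.957), a muscle LIM protein gene, and APC7 (0.955), an anaphase-promoting complex gene. Mlp84B averaged 61.6, 34.2 and 38.6 CPM in control, mutant and rescue. For Dad they were dysc (r = 0.957), Pka-R1 (0.946), a regulatory subunit gene of protein kinase A, and Cbl (0.944), a ubiquitin ligase gene, which averaged 51.4, 40.1 and 43.7 CPM in the groups. For gbb they were Ank2 (r = 0.958) and the chitinase-family genes Cht4 (0.954) and Cht12 (0.953), for tkv CG12698 (0.973), CG5098 (0.954) and Muc14A (0.929), and for sax Pdha (0.953), ATPsynbeta (0.950) and CG5805 (0.945), of which Pdha and ATPsynbeta encode mitochondrial enzyme subunits. For put they were Sap130 (0.955), CG9192 (0.885) and Cpr64Aa (0.881), and for Mad CG32202 (0.924), lolal (0.909) and dco (0.888).

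Beyond the 7 members, 41 further genes of BMP signalling were listed, of which 37 were matched to an identifier and 30 tested. Those not matched were Med, which encodes Medea, cv-d, ltl and mtv, so no levels are given for them. In mutant against control 1 rose and 2 fell, or 3 of 30, where 6.67% of all tested genes were called (3.66% rose and 3.01% fell). The small count is near that share, and the median log2 fold change was 0.05. All 3 encode extracellular proteins that bind BMP ligands. sog, which encodes the chordin-like antagonist Short gastrulation, measured 18.3, 22.9 and 20.8 CPM in the control libraries, 27.2, 34.2 and 30.0 CPM in those of the mutant, and 38.0, 33.8 and 37.4 CPM in those of the rescue. Every mutant and rescue library was above every control library. sog rose by 0.56 ± 0.12 in the mutant (1.47-fold, edgeR adjusted p = 0.0270) and by 0.82 ± 0.12 in the rescue (1.76-fold, edgeR adjusted p = 0.00442), both against control. The rescue call was kept in all 18 alternatives (adjusted p up to 0.0339), and the mutant call in 12 of 18. The mutant call was lost with only the 6 libraries compared, with or without the replicate block, and without control replicate 1 or 3 or mutant replicate 2 or 3 (adjusted p up to 0.0871).

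Col4a1 and vkg encode the type IV collagen chains of basement membranes, which bind Dpp. Col4a1 measured 8.44, 21.9 and 9.35 CPM in the control libraries, 1.94, 3.51 and 2.21 CPM in those of the mutant, and 5.18, 8.27 and 2.36 CPM in those of the rescue. vkg followed the same pattern, at 5.51, 13.6 and 6.61 CPM, then 1.76, 2.75 and 1.48 CPM, then 3.67, 5.90 and 1.31 CPM. The mutant libraries were below all control libraries for both genes, and control replicate 2 was the highest library of each. Against control, the log2 fold change of Col4a1 in the mutant was -2.37 ± 0.50 (edgeR adjusted p = 0.0232) and that of vkg -2.10 ± 0.53 (edgeR adjusted p = 0.0459), so both fell. Without control replicate 2 or any 1 mutant library both calls were lost (adjusted p up to 0.1 for Col4a1 and 0.154 for vkg), and that of vkg also without control replicate 3 or rescue replicate 1. Rescue against control did not pass for either (-1.33, edgeR adjusted p = 0.114, and -1.24, adjusted p = 0.155). The haemocyte marker sum given above was likewise highest in control replicate 2, at 53.0 CPM against 22.5 and 22.0 CPM in the other control libraries. Fat body markers summed to 13.5 to 77.7 CPM in control, 5.08 to 6.71 in the mutant and 6.31 to 9.59 in the rescue. Of the 6 tested, 3 fell in the mutant (background 3.01% falling), and none of the 7 matched was at 0 in all libraries. The yolk protein genes Yp1 and Yp2, which are female-specific targets of sex determination, took more of the sum than the other 5 together in every control library and were 2 of the 3 calls. Without them the other 5 summed to 16.5, 11.5 and 6.03 CPM in control and 6.11, 4.80 and 5.13 CPM in the mutant, which overlapped. The overlap came from control replicate 3 alone, and control replicates 1 and 2 lay above every mutant library. Lsp1gamma was the third marker that fell (-3.21, edgeR adjusted p = 0.00875), while Lsp2 (0.63, edgeR adjusted p = 0.711) and Apoltp (-0.21, edgeR adjusted p = 0.607) did not pass. apolpp was lower without passing (-1.14, edgeR adjusted p = 0.150), though DESeq2 called it lower. The part of these cells in the collagen difference was not tested.

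The other lists of the BMP branch gave no call with edgeR in mutant against control. The further ligand gene scw had at most 3 counts in any library and was not tested. The receptor gene wit, a type II receptor known from neurons, measured 58.1 ± 18.4 CPM in control, 41.7 ± 3.58 in the mutant and 39.4 ± 2.97 in the rescue (mutant against control -0.48, edgeR adjusted p = 0.190; without control replicate 3 it passed, with adjusted p = 0.0147). Of the 4 tested nuclear factors none passed (0 also without adjustment of p, and 0 with DESeq2), and the corepressor gene CtBP (161 ± 12.7, 171 ± 11.4 and 180 ± 12.4 CPM), the Mad cofactor gene shn (107 ± 25.0, 115 ± 24.3 and 125 ± 16.3 CPM) and Snoo, a Ski and Sno family gene (31.6 ± 7.03, 39.3 ± 7.27 and 48.5 ± 5.52 CPM), overlapped between control and mutant. The remaining nuclear factor gene, brk, had the largest mutant difference of that list (0.56, edgeR adjusted p = 0.321), and its control and mutant libraries overlapped too. It measured 24.3 ± 6.75, 35.9 ± 15.0 and 37.2 ± 10.3 CPM (rescue against control 0.61, edgeR adjusted p = 0.260). None of the 5 tested intracellular modulators passed either (0 also without adjustment of p, and 0 with DESeq2). Among them the ubiquitin ligase gene Smurf measured 100 ± 10.6, 100 ± 9.72 and 102 ± 4.61 CPM, Fkbp12 222 ± 19.2, 185 ± 15.3 and 185 ± 30.5 CPM, and Sara, a Smad anchor gene, 87.1 ± 8.98, 83.4 ± 3.28 and 78.2 ± 0.274 CPM.

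Of the 10 listed BMP target genes, known as such mostly from embryos and wing discs, 7 were tested and none passed in mutant against control (1 was lower and 0 higher without adjustment of p, and DESeq2 called 0). Ance, a peptidase gene, measured 1640 ± 238, 1980 ± 259 and 1710 ± 246 CPM, trio 187 ± 24.6, 205 ± 11 and 199 ± 3.63 CPM, and dve, a homeobox gene of the middle midgut, 115 ± 17.9, 135 ± 8.12 and 128 ± 10.6 CPM. lab, which marks copper cells, was at 21.4 ± 3.45, 17.6 ± 2.32 and 18.0 ± 1.23 CPM (mutant against control -0.28, edgeR adjusted p = 0.265). The wing disc targets bi and vg and the germline gene bam had at most 35 counts in any library and were not tested.

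In rescue against control sog was the only further BMP gene called by edgeR among the 30 (background 9.44%), and in rescue against mutant none was (background 0.466%; 0 without adjustment of p and 0 by DESeq2). The number called in rescue against control was 3 with DESeq2 (sog, Snoo and Col4a1), where 836 of 10571 genes rose and 906 fell. It was also 3 without control replicate 3 (sog, wit and dlp), where 440 of 10246 genes rose and 486 fell.

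The Activin branch, which shares put with the BMP branch, held 6 genes, all tested. In mutant against control 1 fell and none rose (background 6.67%), and in rescue against control 1 rose and 1 fell (background 9.44%). daw, which encodes the Activin-like ligand Dawdle, measured 2.03, 10.6 and 7.33 CPM in the control libraries, 0.968, 0.189 and 0.421 CPM in those of the mutant, and 1.04, 0.360 and 0.834 CPM in those of the rescue. All control libraries were above the others, with control replicate 1 the lowest of its group. Against control, daw fell in both groups, with a log2 fold change of -3.66 ± 0.73 for the mutant (edgeR adjusted p = 0.0181) and -3.15 ± 0.71 for the rescue (edgeR adjusted p = 0.0253). The mutant call was lost without mutant replicate 2 or 3 and with the replicate block on the 6 libraries (adjusted p up to 0.111). The rescue call was lost without control replicate 2, without any 1 rescue library, and with the block on the 6 libraries (adjusted p up to 0.0968).

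Actbeta, which encodes the ligand Activin-beta, measured 1.22, 0.999 and 1.21 CPM in the control libraries, 1.82, 1.88 and 1.87 CPM in those of the mutant, and 2.34, 1.73 and 1.89 CPM in those of the rescue. Both groups lay above control. Actbeta rose in rescue against control by 0.80 ± 0.21 (1.74-fold, edgeR adjusted p = 0.0414, kept in 4 of 18 alternatives, with adjusted p up to 0.132), and its mutant difference did not pass with edgeR (0.70, adjusted p = 0.0749), though it did with DESeq2. The call was lost without control replicate 1 or 2 or any 1 mutant or rescue library, with upper-quartile scaling or library totals alone, without the filter on low counts, with the replicate block, and on the 6 libraries compared with or without the block. The summed enteroendocrine markers were higher as well: their sum was 826 to 1060 CPM in control, 1080 to 1240 in the mutant and 1290 to 1370 in the rescue. In rescue against control 5 of 10 rose (background 4.79% rising), and none of the 10 was at 0. Orcokinin (-0.15, edgeR adjusted p = 0.544) and NPF (-0.14, 0.662) were lower there without passing. In mutant against control 1 of the 10 rose (Tk, 0.82, edgeR adjusted p = 0.00748) and 1 fell (Orcokinin, -0.61, edgeR adjusted p = 0.0362), with NPF at -0.30 (adjusted p = 0.333). The background there was 3.66% rising and 3.01% falling. The 4 neuron markers summed to 19.0 to 21.0 CPM in control, 22.2 to 27.2 in the mutant and 27.5 to 32.7 in the rescue, with brp rising in both groups (0.75, edgeR adjusted p = 0.0148, and 0.97, adjusted p = 0.00396) and Syt1 in the rescue (0.83, adjusted p = 0.0238), and none of the 4 was at 0. The part of these cells in the Actbeta difference was not tested. The ligand genes mav (10.8 ± 0.297, 7.81 ± 2.59 and 9.53 ± 1.83 CPM) and myo (52.6 ± 10.4, 58.3 ± 16.7 and 68.2 ± 6.07 CPM), the type I receptor gene babo (82.3 ± 2.79, 84.7 ± 13.7 and 90.5 ± 3.95 CPM) and the Smad gene Smox (83.5 ± 14.6, 87.4 ± 6.10 and 90.9 ± 7.27 CPM) did not pass in any comparison.

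**Figure D5:**
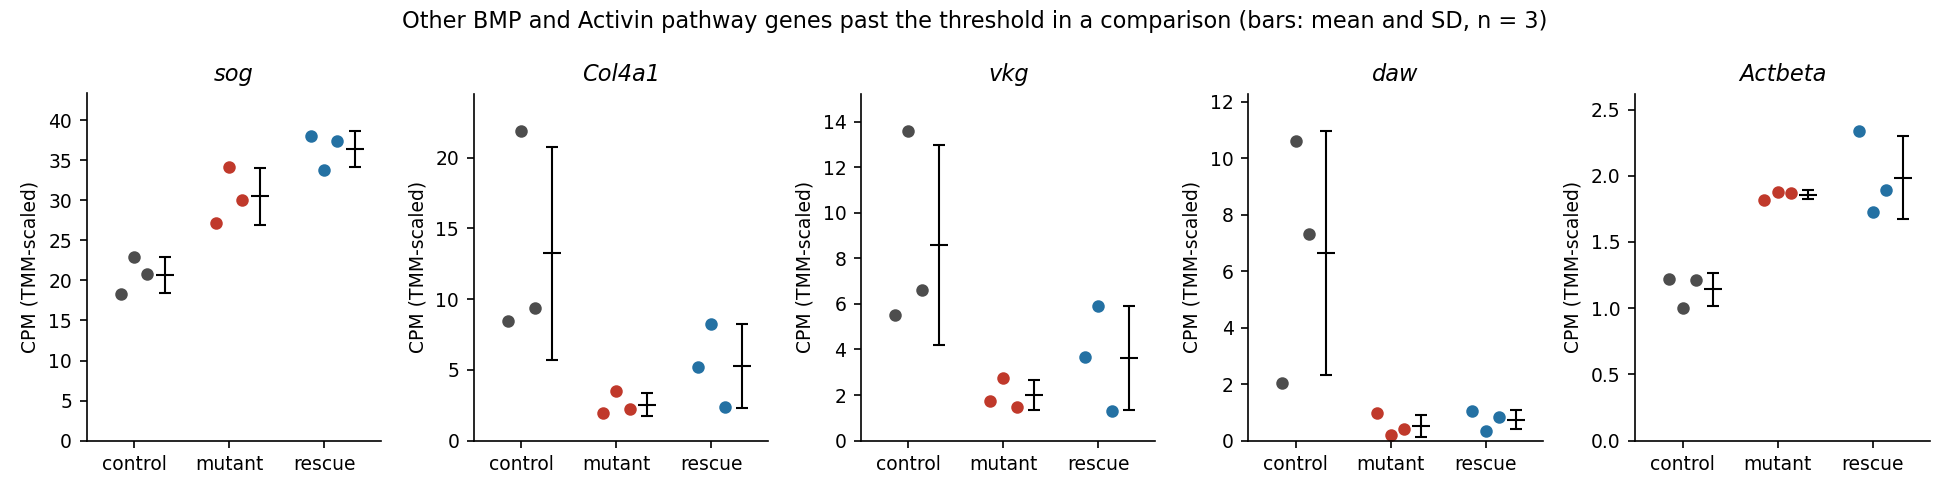
Level in CPM (vertical axes, from 0) of sog, Col4a1, vkg, daw and Actbeta in the 9 libraries, 1 point per library with mean and SD per group (n = 3). sog is at 18.3 to 22.9 CPM in control and 33.8 to 38.0 CPM in the rescue, and daw is at 2.03 to 10.6 CPM in control and at most 1.04 CPM in the other groups.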

How the data were processed

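The authors deposited whole-number counts per gene, 1 table per library. Per the labels, a stranded poly(A) kit was used on 500 ng of RNA, with paired reads of 100 bases. Per the submitters' processing notes, TopHat2 2.0.11, HTSeq and the build dm3 were used; strand and overlap settings are not given in the sources used here. Library sizes leave out 5 summary lines without a gene. Reads aligned to several places made up 14.6% to 22.9% of the alignments in a table, reads outside genes 1.3% to 1.83% and ambiguous reads 0.822% to 1.09%. These shares differed between groups. Ambiguous reads made up 0.822% to 0.900% in control, 0.966% to 1.033% in the mutant and 1.045% to 1.088% in the rescue. Reads aligned to several places made up 14.6% to 16.5% in control, 15.8% to 22.9% in the mutant and 18.4% to 19.5% in the rescue.

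Symbols came from a name table (15002 of 15682 identifiers matched). Gene lengths and exon overlaps came from the Ensembl annotation of BDGP6, another build, so no coordinates are given and levels per kb are approximate. Genes were filtered by filterByExpr (10 counts, 15 in total), scaled by TMM and tested with the quasi-likelihood test of edgeR 4.0.16 in R 4.3.3, with a mean per group over all 9 libraries. Adjusted p is the Benjamini-Hochberg value over all 10088 tested genes, with a threshold of 0.05. The script was tested on simulated data. SE came from the F statistic, and 95% intervals from SE and the test's degrees of freedom. Count ratios were tested by exact permutation (two-sided, scipy 1.17.1). Counting errors cover counting only. Whether replicates were separate cultures is not in the labels, and each p-value therefore measures only the spread of these libraries, which may be technical. No library was a copy of another: the lowest chi-square per degree of freedom within a group was 121.5.

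Same-numbered control and mutant libraries deviated together from their group means (r = 0.204, 0.176 and 0.170 across genes), and were treated as possible pairs. For rescue against control the values were 0.0237, 0.250 and 0.0304, and for rescue against mutant 0.0964, 0.0726 and -0.237, and these were not. All r values are small, deviations from a mean of 3 libraries are not independent, and the labels state no pairing. Pairing is therefore not established. The fit reported has no block. The 18 alternatives were 3 other scalings, 2 other filters, DESeq2 1.42.0, the replicate block, the 6 libraries compared with and without it, and leaving out each library.

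The members and lists were chosen with earlier results of these data known. Named besides the members were the pathway genes past the threshold, otherwise up to 3 per list with the highest mean level, and 3 genes per member with the highest r (log2 CPM + 0.5). Other genes in the text (such as lab, babo, Mhc and Yp1) were named after their values were seen.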

Additional observations from a re-analysis of the deposited data

How the results depend on the processing

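Among the BMP and Activin genes, sog in rescue against control was the only edgeR call kept in all 18 alternatives, and the cause of the losses was not tested. Of the 7 members, 1 (dpp) was called in mutant against control with DESeq2, and 0 to 1 when single libraries were left out. In rescue against control, 1 (dpp) was called with DESeq2, on the 6 libraries compared and on those with the replicate block, and 0 to 1 with single libraries left out. Over all genes, too, DESeq2 called more than edgeR in both comparisons against control. Of the 30 further BMP genes, 0 to 3 were called in mutant against control with single libraries left out (0 without mutant replicate 2 or 3, 1 without control replicate 2 or mutant replicate 1). In rescue against control, 2 were called with library totals alone, 3 with DESeq2, 4 with the replicate block (brk, Col4a1, sog and vkg), 3 on the 6 libraries with the block, and 1 to 3 with single libraries left out. In mutant against control, where the numbers were treated as possible pairs, the replicate block over all 9 libraries left the counts at 0 members and 3 further BMP genes, with daw also called. With the block on the 6 libraries compared, which pairs only control and mutant, 0 members and 2 further BMP genes were called (Col4a1 and vkg), and sog and daw were lost. Pairing the count ratios by number, added after seeing the data, kept their mean differences and gave no p under 0.25.

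Small log2 differences turned in sign when single libraries were left out. In mutant against control these were gbb (-0.19 to 0.07) and put (-0.00048 to 0.11). In rescue against mutant they were dpp (-0.15 to 0.30), tkv (-0.06 to 0.14) and sax (-0.04 to 0.08), and the count ratios tkv/sax (-0.13 to 0.12), tkv/put (-0.04 to 0.21) and Dad/Mad (-0.02 to 0.15). In rescue against control they were put (-0.15 to 0.04) and Mad (-0.06 to 0.06). Mad there was also -0.03 with upper-quartile scaling and -0.0037 without the filter on low counts.

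With 3 libraries a group, exact tests of ratios could not go below p = 0.1.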
